A study of Mus musculus with 16 samples.

Results

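Elastic fibres are the rubber-like component of the extracellular matrix, and the genes described here encode their proteins together with 2 families that act on them: the latent TGF-beta binding proteins (LTBPs) and the lysyl oxidases. The list held 10 genes, namely Eln, Fbn1, Fbln2, Fbln5, Mfap5, Ltbp2, Ltbp3, Lox, Loxl1 and Loxl2, and a gene was taken as measured where the array annotation gave at least 1 probe set with that symbol and no other. By this rule 8 of the 10 genes were measured, by 13 probe sets, out of 12393 named genes on the array. Fbn1 had no such probe set, and the probe set of Loxl2 carried 2 gene symbols, so neither gene has a value here. Of the 13 probe sets, 10 were bright enough to be tested, and these covered all 8 measured genes.

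Left ventricular RNA of C57BL/6J mice aged 12 to 14 weeks was hybridised to 16 Affymetrix 430A arrays, 1 animal to an array, 14 days after surgery. Female mice with transverse aortic constriction (TAC), female sham-operated mice, male mice with TAC and male sham-operated mice had 4 arrays each, named below by the replicate numbers of the labels. TAC narrows the aortic arch, so that the left ventricle pumps against a raised pressure, and sham animals carried no constriction. The series asks about sex-specific early responses to that load.

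Elastin, the product of Eln, is laid down on microfibrils, thin filaments built mainly of fibrillin. Fibulins and microfibril-associated proteins bind to both components and help to assemble them, LTBPs attach to microfibrils and several of them hold latent TGF-beta in the matrix, and lysyl oxidases crosslink lysines of elastin and collagen so that the fibres become insoluble. In the heart these proteins are made largely by fibroblasts and, in vessel walls, by smooth muscle cells.

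In males all 8 measured genes rose with TAC, and in females 7 of the 8 rose, Fbln2 being the exception. Most of these calls depended on whether a measure of RNA quality that also moved with TAC, the Gapdh 3′ to 5′ signal ratio, was in the fit: with it, 1 of 8 genes stayed called in females and 2 of 8 in males, and every log2 difference stayed above 0. No gene passed the test of a difference between the sexes in its response to TAC. In males 10 of 10 tested probe sets of these genes were called higher, where 8.07% of all 13576 tested probe sets were. In females 9 of the 10 were called higher, where 6.46% of all were. Calls are from limma, fitted to log2(signal + 16) on all 16 arrays, at a Benjamini-Hochberg adjusted p below 0.05 over all tested probe sets, and signals are arbitrary units that cannot be set against each other between probe sets. The median log2 fold change over the 8 genes was 1.20 in females and 1.56 in males, beside −0.03 in each sex over all tested probe sets. As the genes were chosen with earlier results of these data known, these counts and medians describe the list and do not test it. Ltbp2 was bright enough to be tested only through its TAC arrays and so had to differ. Without it, 6 of 7 genes and 8 of 9 probe sets were called higher in females. In males 7 of 7 genes and 9 of 9 probe sets were. The medians over the 7 genes were then 1.17 in females and 1.50 in males. Because whole ventricle was used, more cells of a type and more RNA per cell cannot be told apart in any of these values.

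**Figure D1:**
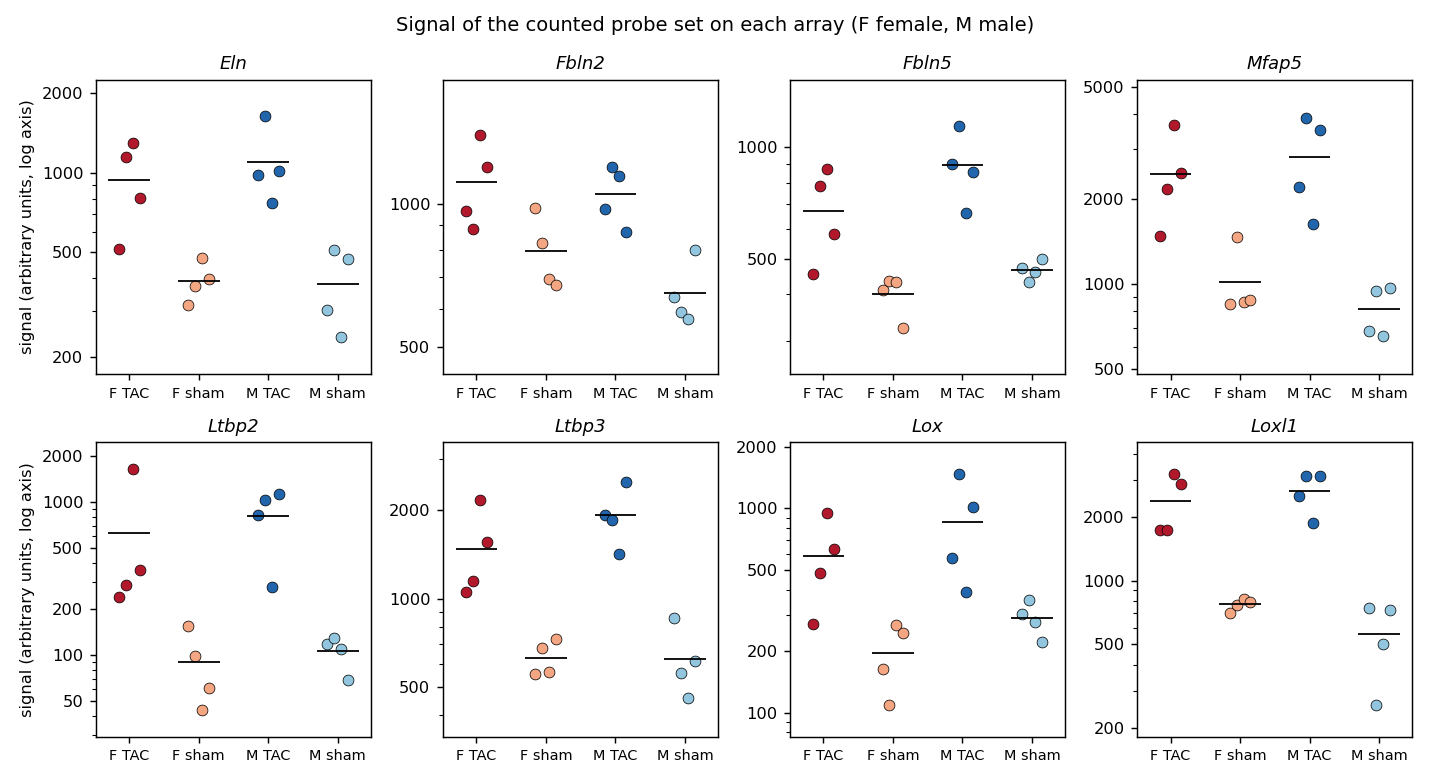
Signal of the counted probe set of each measured gene on each array, in arbitrary units on a log axis, with a bar at the group mean (4 arrays a group; each panel has its own axis). For every gene except Fbln2 in females, all TAC arrays of a sex lie above all sham arrays of that sex.

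Fibre core and microfibril proteins come first. Eln signals were 516, 1148, 1300.4 and 805 in female TAC replicates 1, 2, 3 and 5, against 317, 373, 475 and 395.5 in female sham replicates 1 to 4. In males they were 979.8, 1638, 771 and 1016 in TAC replicates 1, 2, 4 and 5, against 301, 511, 238 and 474 in sham replicates 1 to 4. Each TAC array lay above each sham array of its sex, though female TAC replicate 1 did so by a small margin. Eln rose by 1.17 on the log2 scale in females (SE 0.28, limma adjusted p = 0.00647), a 2.25-fold difference, and by 1.50 in males (SE 0.28, adjusted p = 0.000751), a 2.83-fold difference. The second Eln probe set was too dim to be tested with the others. It read 48.0 to 347 in female TAC, 21.6 to 85.8 in female sham, 52.7 to 640.1 in male TAC and 51.6 to 185 in male sham, groups that overlapped in both sexes. In a limma fit without the brightness filter it did not pass (adjusted p = 0.103 in females and 0.641 in males).

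Mfap5 encodes a small glycoprotein that decorates microfibrils. Its brighter probe set read 1478, 2177.5, 3654 and 2466.5 in female TAC replicates 1, 2, 3 and 5, against 851, 1466, 862.5 and 874 in female sham replicates 1 to 4. In males the same probe set read 2201, 3874, 1633 and 3520 in TAC replicates 1, 2, 4 and 5, against 683, 947, 655 and 967 in sham replicates 1 to 4. The groups did not overlap in either sex, but female sham replicate 2 stood well above the other female sham arrays and just below the lowest female TAC array. Mfap5 rose by 1.22 on the log2 scale in females (SE 0.27, limma adjusted p = 0.0038) and by 1.71 in males (SE 0.27, adjusted p = 0.000169). The second Mfap5 probe set gave log2 differences of 1.51 in females (adjusted p = 0.00139) and 1.90 in males (adjusted p = 0.000129). Its female TAC arrays lay between 719 and 1737 and its female sham arrays between 284 and 411, and female sham replicate 2, at 284, was the lowest sham array there.

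The fibulins changed least. Fbln5 encodes fibulin-5, which binds elastin and integrins and which mice need to form normal elastic fibres. Fbln5 signals were 454, 785, 871.5 and 583 in female TAC replicates 1, 2, 3 and 5, against 410.3, 434, 432 and 324 in female sham replicates 1 to 4. The male signals were 904, 1143.5, 665 and 859.5 in TAC replicates 1, 2, 4 and 5, against 471, 432, 459.9 and 499.6 in sham replicates 1 to 4. The male groups were well separated, while the lowest female TAC array lay just above the highest female sham array. The log2 difference was 0.69 in females (SE 0.19, limma adjusted p = 0.0171) and 0.89 in males (SE 0.19, adjusted p = 0.00251). The female call was lost when female TAC replicate 3 was left out (0.56, adjusted p = 0.0681), and also without female TAC replicate 2 or female sham replicate 4.

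Fbln2 encodes fibulin-2, which links elastin, fibrillin and basement membrane proteins. Its signals were 963, 885, 1394 and 1196 in female TAC replicates 1, 2, 3 and 5, against 981, 826, 694 and 674 in female sham replicates 1 to 4. Male signals were 976, 1194, 1141.5 and 870 in TAC replicates 1, 2, 4 and 5, against 635, 590.2, 572 and 799 in sham replicates 1 to 4. The female groups overlapped, since female sham replicate 1 exceeded a pair of female TAC arrays, whereas the male groups did not. Fbln2 rose by 0.68 on the log2 scale in males (SE 0.17, limma adjusted p = 0.0074). In females the log2 difference was 0.47 (95% interval 0.12 to 0.82, adjusted p = 0.064), and the female and male responses differed by −0.21 (95% interval −0.70 to 0.28, adjusted p = 0.913), so that a missing female call does not show a difference between the sexes.

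**Figure D2:**
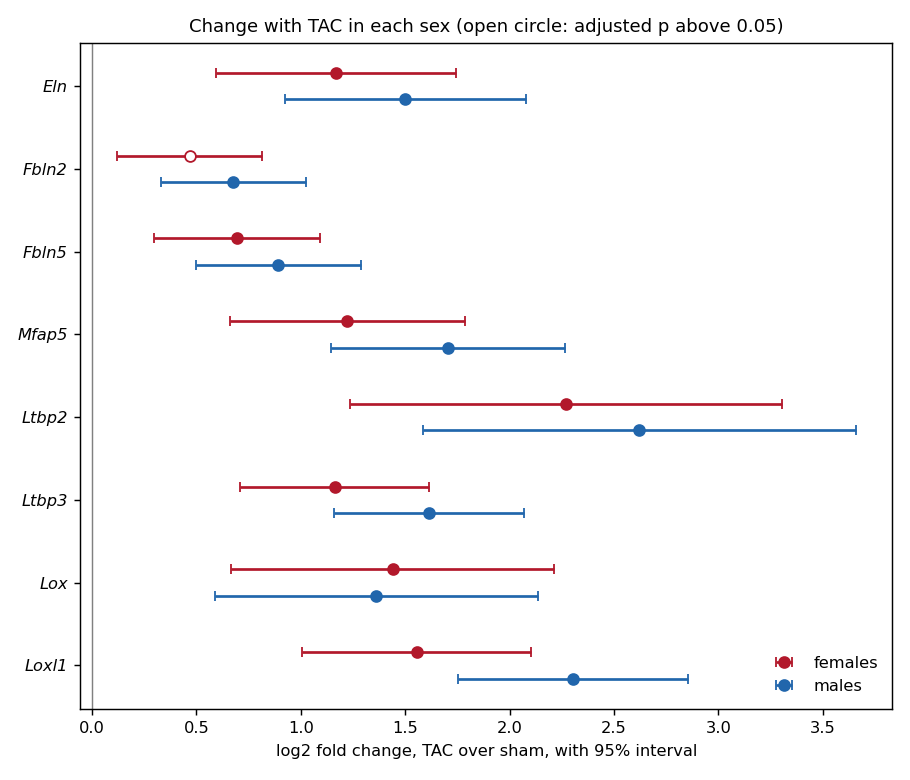
Log2 fold change of TAC over sham with its 95% interval from limma for the counted probe set of each gene, females above males. All 16 values lie above 0, from 0.47 for Fbln2 in females to 2.62 for Ltbp2 in males, whose size depends on the pseudocount, and the female value is the smaller one for each gene but Lox.

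Both LTBP genes of the list, Ltbp2 and Ltbp3, rose in both sexes. Ltbp2 encodes an LTBP that binds fibrillin microfibrils and, unlike LTBP-1 and LTBP-3, does not bind latent TGF-beta. Ltbp2 signals were 242, 289.9, 1647 and 362.5 in female TAC replicates 1, 2, 3 and 5, against 156, 98.3, 43.9 and 61.4 in female sham replicates 1 to 4. In males they were 825, 1042, 279 and 1129 in TAC replicates 1, 2, 4 and 5, against 118, 131, 110.2 and 68.5 in sham replicates 1 to 4. The groups did not overlap in either sex, yet the TAC arrays differed widely among themselves, with female TAC replicate 3 far above the other female arrays and male TAC replicate 4 far below the other male TAC arrays. Ltbp2 rose by 2.27 on the log2 scale in females (SE 0.50, limma adjusted p = 0.00364), a 4.83-fold difference, and by 2.62 in males (SE 0.50, adjusted p = 0.000947), a 6.16-fold difference. Without female TAC replicate 3 the female log2 difference was 1.67 (adjusted p = 0.0121). The mean signal at the brightness limit was 131, and 7 of 8 sham arrays read below it, so Ltbp2 was no longer tested when the dimmest 60% of probe sets were left out. With sham arrays this dim the size of the difference depends on the pseudocount, and with 1 and 64 in place of 16 the log2 difference was 2.48 and 1.84 in females and 2.78 and 2.24 in males, past the threshold each time.

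Ltbp3 encodes an LTBP that carries latent TGF-beta. Its brighter probe set read 1053, 1148, 2162.5 and 1558 in female TAC replicates 1, 2, 3 and 5, against 552, 677, 563 and 728 in female sham replicates 1 to 4. In males it read 1935, 1861, 1422.5 and 2506 in TAC replicates 1, 2, 4 and 5, against 862, 558, 459.9 and 614 in sham replicates 1 to 4. All TAC arrays lay above all sham arrays, across the sexes as well as within them. Ltbp3 rose by 1.16 on the log2 scale in females (SE 0.22, limma adjusted p = 0.00109) and by 1.61 in males (SE 0.22, adjusted p = 3.33e-05). The second Ltbp3 probe set gave smaller log2 differences, 0.90 in females (adjusted p = 0.0349) and 0.97 in males (adjusted p = 0.0195). Its groups overlapped in both sexes, with 402 to 895 in female TAC, 192 to 457 in female sham, 300.2 to 643 in male TAC and 215 to 302.5 in male sham.

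Because these genes moved together, the bases upstream of the start site are shown for 3 of the measured genes, namely both LTBP genes and Fbln5. The other measured genes are not shown, and whether they hold the motifs below was not tested. The sequences are from RefSeq, build GRCm38.p6, and run 5′ to 3′ on the gene's strand. Those of Fbln5 (chr12:101819120-101819369, minus strand) and Ltbp3 (chr19:5740650-5740899, plus strand) are the 250 bases before the gene. That of Ltbp2 (chr12:84876559-84876741, minus strand) has 183 bases, because the rest of its 250-base window lies inside the gene's annotated span. Capitals mark matches on either strand to CAGAC, the core of the SMAD-binding element, or to GGGCGG, the GC box of Sp1.
Ltbp2: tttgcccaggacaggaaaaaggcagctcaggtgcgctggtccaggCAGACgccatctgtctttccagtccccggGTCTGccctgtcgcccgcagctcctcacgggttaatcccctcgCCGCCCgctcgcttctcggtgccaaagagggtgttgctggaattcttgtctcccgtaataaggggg
Ltbp3: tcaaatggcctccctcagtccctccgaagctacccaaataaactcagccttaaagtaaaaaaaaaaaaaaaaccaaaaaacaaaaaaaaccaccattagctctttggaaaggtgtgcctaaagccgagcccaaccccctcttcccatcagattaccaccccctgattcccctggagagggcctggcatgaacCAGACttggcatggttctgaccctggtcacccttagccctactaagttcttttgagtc
Fbln5: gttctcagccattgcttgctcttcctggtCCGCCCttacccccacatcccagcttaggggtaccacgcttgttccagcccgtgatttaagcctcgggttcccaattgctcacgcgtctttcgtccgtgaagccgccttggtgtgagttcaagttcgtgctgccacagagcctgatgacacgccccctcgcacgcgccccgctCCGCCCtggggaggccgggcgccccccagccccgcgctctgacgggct
CAGAC or its complement matched 2 times in Ltbp2, 1 time in Ltbp3 and 0 times in Fbln5, and no matches overlapped. Of the 32851 mouse promoters in the table, 33.6% held it in the same 183 bases and 42.2% in the 250 bases. The GC box matched 1 time in Ltbp2, 2 times in Fbln5 and 0 times in Ltbp3, beside 21.5% of promoters with a match in the 183 bases and 32.7% in the 250 bases. The MCAT element CATTCC (12.6% of promoters over 250 bases), the AP-1 element TGANTCA (6.75%) and the TATA box TATAAA (12.4%) had no match in these windows. These shares show that each matched motif is common among promoters of this length.

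Both measured lysyl oxidase genes of the list, Lox and Loxl1, rose in both sexes. Lox encodes the founding member of the family, which crosslinks elastin and collagen. Lox signals were 270.2, 481, 949.6 and 635 in female TAC replicates 1, 2, 3 and 5, against 164, 108.5, 267 and 244 in female sham replicates 1 to 4. Male arrays read 572, 1475.5, 391 and 1010 in TAC replicates 1, 2, 4 and 5, against 305.5, 357, 278 and 223 in sham replicates 1 to 4. The groups did not overlap, but the lowest female TAC array and the highest female sham array nearly met. Lox rose by 1.44 on the log2 scale in females (SE 0.37, limma adjusted p = 0.0114) and by 1.36 in males (SE 0.37, adjusted p = 0.0141). The male call was lost without male TAC replicate 2 (1.05, adjusted p = 0.0655). The other Lox probe sets, at most 114 and 181 on any array, were too dim for the test and did not pass without the brightness filter: the log2 differences were 0.07 in females and −0.58 in males for one, and 0.35 in females and 0.59 in males for the other.

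Loxl1 encodes a lysyl oxidase that acts chiefly on elastin and is guided to it by fibulin-5 in mice. Loxl1 signals were 1746, 1736, 3185 and 2877 in female TAC replicates 1, 2, 3 and 5, against 706, 765, 821 and 797 in female sham replicates 1 to 4. Male mice had 2507, 3132, 1883 and 3143 in TAC replicates 1, 2, 4 and 5, against 741, 259, 502 and 728.5 in sham replicates 1 to 4. The lowest TAC array of either sex read more than the highest sham array by a wide margin, and the female sham arrays were close together. Loxl1 rose by 1.55 on the log2 scale in females (SE 0.26, limma adjusted p = 0.000456), a 2.94-fold difference, and by 2.30 in males (SE 0.26, adjusted p = 6.52e-06), a 4.94-fold difference. It had the smallest adjusted p of the 8 genes in both sexes.

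Counted over the list, every TAC signal lay above every sham signal of the same sex for 7 of the 8 genes and 8 of 10 probe sets in females, where 8.29% of all tested probe sets did so. In males this held for 8 of 8 genes and 9 of 10 probe sets, where 8.75% of all did so. The counts of both sexes include Ltbp2, which was bright enough to be tested only through its TAC arrays. Averaged over the sexes, limma called 8 of 8 genes higher, with log2 differences of 0.57 to 2.45, where 12.9% of all tested probe sets were called higher, and 7 of 7 without Ltbp2.

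The genes also varied together between the arrays of each TAC group. Female TAC replicate 3 had the highest signal of its group for 8 of 8 genes, and female TAC replicate 1 the lowest for 6 of 8. Male TAC replicate 2 was the highest of its group for 5 of 8 genes, and male TAC replicate 4 the lowest for 7 of 8. In the sham groups no array was the highest for more than 3 of 8 genes or the lowest for more than 4. Whether the same TAC arrays were also high or low over all probe sets was not tested. The Gapdh ratio was the lowest of its group in female TAC replicate 1 (0.958) and male TAC replicate 4 (1.004), and the highest in male TAC replicate 2 (1.16). Female TAC replicate 3, at 0.973, lay below female TAC replicates 2 and 5 (1.03 and 1.001). The part of RNA quality in this pattern was not tested. Averaged over the 8 genes, gene-centred log2 signals were −0.04, 0.40, 1.26 and 0.59 in female TAC replicates 1, 2, 3 and 5, against −0.74 to −0.66 over the female sham arrays. In males they were 0.78, 1.30, 0.30 and 1.09 in TAC replicates 1, 2, 4 and 5, against −0.90 to −0.62 over the sham arrays. The TAC arrays thus spread over a wider range than the sham arrays in each sex. Without female TAC replicate 3, limma called 6 of 8 genes higher in females.

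**Figure D3:**
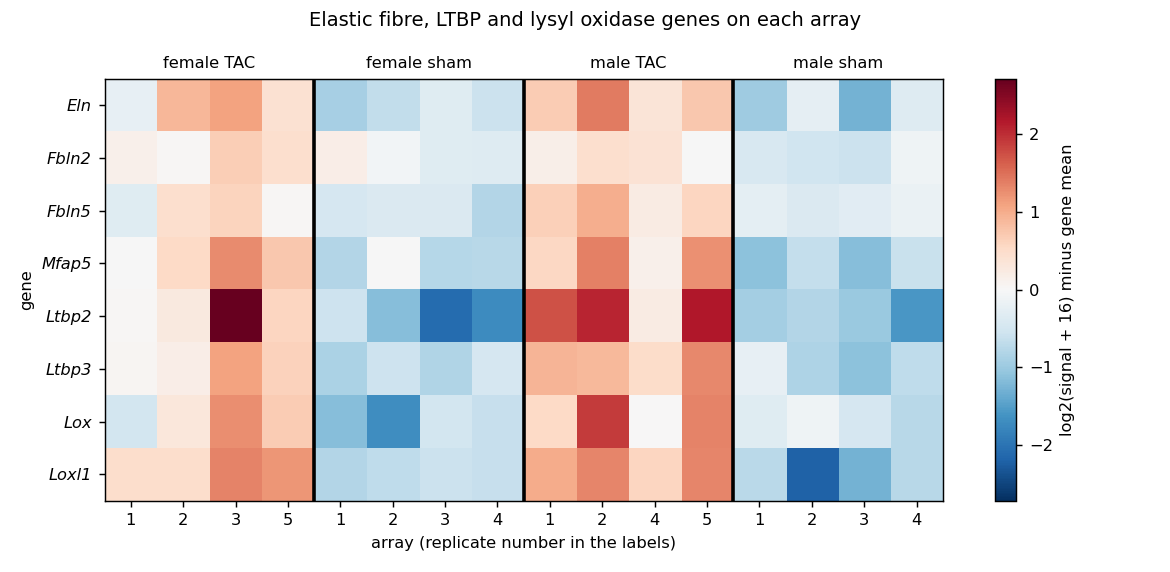
Log2(signal + 16) of the counted probe set of each gene on each array, minus the gene's mean over the 16 arrays, grouped by sex and operation. The columns of female TAC replicate 3 and male TAC replicates 2 and 5 are the reddest, and those of female TAC replicate 1 and male TAC replicate 4 the palest of the TAC columns.

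Between the sexes, no gene passed in any of the 3 comparisons made. For the difference of responses, female minus male, limma called 0 of 8 genes, where it called 0% of all tested probe sets, and 0 of 8 had an unadjusted p below 0.05. The difference was negative for 7 of the 8 genes. For Loxl1 it was −0.75 on the log2 scale (95% interval −1.53 to 0.03, adjusted p = 0.768), and for Mfap5 it was −0.48 (95% interval −1.28 to 0.31, adjusted p = 0.869). For Lox it was 0.08 (95% interval −1.01 to 1.17, adjusted p = 0.99). These intervals leave room for responses that differ by a factor of 2 or more, so alike responses were not shown.

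Within TAC, limma called 0 of 8 genes between females and males, where it called 0.0663% of all tested probe sets. Fbln5 was the 1 gene of 8 with an unadjusted p below 0.05 there, with a log2 difference, female minus male, of −0.42 (adjusted p = 0.764). Within sham it called 0 of 8, where 0.309% of all were called. Loxl1 was the 1 gene of 8 with an unadjusted p below 0.05 in sham, with a log2 difference, female minus male, of 0.57 (adjusted p = 0.461). Every TAC group mean exceeded both sham group means for each gene. The mean ± SD of Loxl1 was 2386 ± 755 in female TAC, 772 ± 49.6 in female sham, 2666 ± 601 in male TAC and 557 ± 227 in male sham (n = 4 each). That of Ltbp2 was 635 ± 676 in female TAC, 90 ± 49.7 in female sham, 819 ± 382 in male TAC and 107 ± 26.9 in male sham (n = 4 each).

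Measures of the RNA moved with the operation. The log2 signal of the array's 18S ribosomal probe set was 10.2 ± 0.6 in female TAC and 11.9 ± 0.9 in female sham (SD, n = 4 each, exact permutation p = 0.0286, adjusted p = 0.0381 over 4 tests), and 10.3 ± 1.9 in male TAC and 13.3 ± 0.5 in male sham (exact permutation p = 0.0571). The Gapdh 3′ to 5′ signal ratio, which grows as RNA or cDNA is shortened, was 0.989 ± 0.030 in female TAC and 0.865 ± 0.058 in female sham, and 1.08 ± 0.07 in male TAC and 0.885 ± 0.039 in male sham (n = 4 each, exact permutation p = 0.0286 in each sex, adjusted p = 0.0381). All these tests were 2-sided, and with 4 arrays in each group p cannot go below 0.0286. Male TAC replicate 5 stood apart with an 18S value of 13.2, within the male sham range, and 8 of 8 genes stayed called in males without it.

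With the 18S signal as a covariate, limma called 6 of 8 genes in females and 5 in males, and with the Gapdh ratio it called 1 in females and 2 in males. No log2 difference changed sign under either covariate. Loxl1 kept its call in all 4 of these fits, with log2 differences of 1.50 in females (adjusted p = 0.0369) and 2.22 in males (adjusted p = 0.0203) beside the Gapdh ratio. Ltbp3 was called in males beside the Gapdh ratio (1.58, adjusted p = 0.0393) and missed the threshold in females (1.14, adjusted p = 0.0515). Ltbp2 kept its size beside the Gapdh ratio without passing, at 2.34 in females (adjusted p = 0.0834) and 2.72 in males (adjusted p = 0.114). The log2 differences of Eln were 0.43 in females (adjusted p = 0.539) and 0.41 in males (adjusted p = 0.665), and those of Mfap5 were 0.60 in females (adjusted p = 0.373) and 0.78 in males (adjusted p = 0.352). Those of Lox were 1.01 in females (adjusted p = 0.325) and 0.73 in males (adjusted p = 0.628). As both measures differ between TAC and sham, their part and that of the operation cannot be told apart for any of the 8 genes, whether its call was kept or lost.

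**Figure D4:**
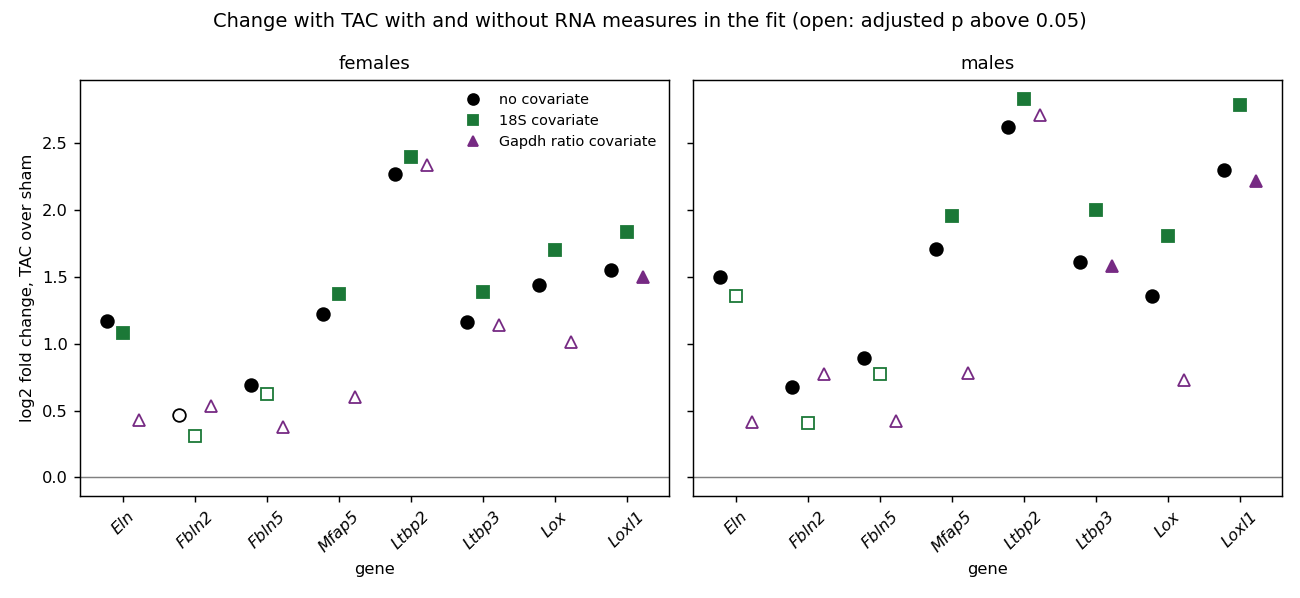
Log2 fold change of TAC over sham for each gene without a covariate, with the 18S signal and with the Gapdh 3′ to 5′ ratio in the limma fit, females on the left and males on the right. Filled symbols passed at an adjusted p below 0.05. The values of Ltbp2, Ltbp3 and Loxl1 move little beside the Gapdh ratio, while those of Eln, Fbln5, Mfap5 and Lox drop in both sexes.

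Markers of the cells that make these proteins were read on the same arrays. Of 8 fibroblast markers tested, 2 rose in females, Col1a1 (1.24, adjusted p = 0.000962) and Pi16 (1.37, adjusted p = 0.000112). In males 4 rose, Col1a1 (1.63), Pi16 (1.40), Dpt (0.76) and Lum (0.67), and Ddr2 fell (−0.52, adjusted p = 0.0451), a call lost in 15 of 20 alternative fits. Beside the Gapdh ratio only the female Pi16 call stayed, and beside 18S only the calls of Col1a1 and Pi16 stayed, in both sexes. The median log2 difference of the 8 markers was −0.06 in females and 0.60 in males. Averaged over the 8 markers, gene-centred log2 signals lay between −0.05 and 0.31 in female TAC and between −0.19 and −0.02 in female sham. In males they lay between 0.04 and 0.55 in TAC and between −0.40 and −0.19 in sham, so the male groups did not overlap on this scale and the female groups did. The summed signal of the 8 markers was 15089.5 to 18222 in female TAC and 15791 to 17609 in female sham, and 15043 to 22092 in male TAC and 14399.5 to 16290.5 in male sham, ranges that overlapped in both sexes and in which the brightest probe sets weigh most. Female TAC replicate 3, the highest array for the 8 genes, had a gene-centred fibroblast mean of 0.06, above every female sham array and below female TAC replicates 2 and 5 (0.25 and 0.31). Female TAC replicate 1, the lowest of its group for 6 of 8 genes, also had the lowest fibroblast mean of its group (−0.05). In male TAC the fibroblast mean was lowest in replicate 4 (0.04) and highest in replicate 2 (0.55), as for most of the 8 genes. Whether the 8 genes follow these markers from array to array was not tested. Of 5 smooth muscle markers tested of 6, Myh11 fell in females (−1.34, adjusted p = 0.0401) and Tagln rose in males (0.71, adjusted p = 0.0339), calls lost in 13 of 19 and 11 of 20 alternative fits. Both calls were lost beside 18S and beside the Gapdh ratio. The summed smooth muscle signal was 4868 to 7450 in female TAC and 6135 to 7913 in female sham, and 4908 to 6315 in male TAC and 4105 to 5809 in male sham.

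The summed signal of 6 cardiomyocyte markers was at least 145225 on every array, and 5 of 6 fell in females and 3 of 6 in males, with median log2 differences of −0.36 in females and −0.31 in males. All 5 female calls were lost with median centring and all 3 male calls with quantile normalization. Beside the Gapdh ratio the calls of both sexes were all lost, and beside 18S only the female Myh6 call stayed. Of 6 endothelial markers limma called 0 in either sex, and 0 had an unadjusted p below 0.05, and of 6 macrophage markers 1 rose in females and 3 in males. The female macrophage call, Csf1r, stayed beside either RNA covariate, and the 3 male calls were lost beside each. The summed macrophage signal was 7151 to 9944 in female TAC and 5699 to 5977 in female sham, and 7849 to 8899 in male TAC and 5587 to 7390 in male sham, with no overlap in either sex. Of 3 atrial genes the 1 bright enough to be tested, Myl4, rose in both sexes (1.10 in females and 1.28 in males). Its calls stayed beside 18S and were lost beside the Gapdh ratio. The summed atrial signal was 338 to 2299 in female TAC and 267 to 503 in female sham, and 764 to 2380 in male TAC and 304 to 409 in male sham. All 4 epicardial markers and the 1 adipocyte marker with a probe set were below the brightness limit, and no marker read exactly 0. The part of these cells and chambers in the results above was not tested.

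Other genes of the same pathways were read from 4 further lists. Beside the shares called higher over all probe sets, given above, 8.6% of all tested probe sets were called lower in females and 9.77% in males. The RNA covariates bear on these lists too. For the calls below, the covariate fits were read on the counted probe set of each tested gene, not on other probe sets or Mfap4. Beside the Gapdh ratio, these calls stayed for Postn in both sexes, Mmp2 and Pcolce in females, and Itgav and Adamtsl4 in males. All others of these calls were lost. With 18S the calls lost were those of Emilin1, Vcan, Furin and Mmp14 in females and of Vcan, Ltbp1, Tgfb3, Itgb5, Mmp14, Ctsk, Timp2 and Timp4 in males. Of 15 other elastic fibre and microfibril genes, 6 were tested, 2 rose in females, and 2 rose and 1 fell in males. Emilin1, which encodes a glycoprotein at the surface of elastin, read 316 to 568 in female TAC and 124 to 314 in female sham, and 383 to 594 in male TAC and 51.2 to 231 in male sham. Its groups did not overlap, and it rose by 1.06 on the log2 scale in females (limma adjusted p = 0.0363) and by 1.68 in males (adjusted p = 0.00142). Vcan, encoding the proteoglycan versican, rose by 0.74 in females (adjusted p = 0.0428) and by 1.04 in males (adjusted p = 0.00465). A second tested Vcan probe set did not pass (0.31 in females, adjusted p = 0.338, and 0.55 in males, adjusted p = 0.0654). The female calls of Emilin1 and Vcan were lost in 10 of the alternative fits each, and without female TAC replicate 3. Adamtsl4, whose human protein binds fibrillin-1, fell by 0.71 in males (adjusted p = 0.00171), and its female log2 difference was −0.24 (adjusted p = 0.297). Mfap2, the relative of Mfap5 encoding MAGP-1, did not pass in either sex (0.84 in females, adjusted p = 0.223, and 0.34 in males, adjusted p = 0.654). Fbln1, encoding fibulin-1, did not pass on its brighter probe set (−0.18 in females, adjusted p = 0.453, and −0.15 in males, adjusted p = 0.534), while its other probe set gave 0.49 in females (adjusted p = 0.24) and was called higher in males (1.01, adjusted p = 0.0111).

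Mfap4, encoding a microfibril-associated protein that binds elastin, was named after its values were seen. Mfap4 signals were 113, 258, 637 and 750.4 in female TAC replicates 1, 2, 3 and 5, against 17.7 to 40.3 in female sham arrays. Those of males were 229.9, 1222, 138 and 1128 in TAC replicates 1, 2, 4 and 5, against 16.6 to 26.3 in sham arrays. With sham arrays this dim, its mean over the 16 arrays on the log2 scale was under the brightness limit. Every TAC array lay above every sham array of either sex, and the lowest TAC arrays were again female replicate 1 and male replicate 4. In the limma fit without the brightness filter it was called higher in both sexes (adjusted p = 0.00299 in females and 0.000386 in males). No fold is given, because sham signals near the pseudocount of 16 would set its size.

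Of 12 other LTBP and latent TGF-beta genes, 10 were tested, 2 rose in females, and 4 rose and 1 fell in males. Ltbp1, encoding the best-known carrier of latent TGF-beta, read 122 to 256 in female TAC and 237 to 469 in female sham, and 95.6 to 221 in male TAC and 290.1 to 386 in male sham. Ltbp1 fell by 1.10 on the log2 scale in males (adjusted p = 0.0104), and its female log2 difference was −0.76 (adjusted p = 0.0835), the opposite sign to Ltbp2 and Ltbp3. Ltbp4, needed for elastic fibre assembly in mice, had log2 differences of 0.15 in females (adjusted p = 0.694) and 0.29 in males (adjusted p = 0.378).

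Among the TGF-beta genes, Tgfb2 rose by 1.70 in males (adjusted p = 9.66e-05) and had a log2 difference of 0.67 in females (adjusted p = 0.0794). A second tested Tgfb2 probe set did not pass (0.44 in females, adjusted p = 0.318, and 0.68 in males, adjusted p = 0.0994). The remaining Tgfb2 probe set was too dim to be tested. In the limma fit without the brightness filter it gave 1.34 in females (adjusted p = 0.121) and 1.93 in males (adjusted p = 0.0174). Tgfb3 rose by 1.88 in males (adjusted p = 0.00243), with 0.43 in females (adjusted p = 0.535). The difference between the sexes in these responses did not pass for either gene (female minus male −1.03, adjusted p = 0.648 for Tgfb2, and −1.45, adjusted p = 0.669 for Tgfb3). Tgfb1 did not pass in either sex (0.04 in females, adjusted p = 0.9, and 0.22 in males, adjusted p = 0.398). Itgav, the integrin subunit of receptors that free TGF-beta from its latent complex, rose in both sexes (0.59 in females, adjusted p = 0.00341, and 1.05 in males, adjusted p = 1.15e-05). The other Itgav probe sets were too dim to be tested. Without the brightness filter their log2 differences were −0.98 and −0.51 in females and −1.87 and −0.26 in males. In that limma fit the male −1.87 passed (adjusted p = 0.0493) and the others did not. Itgb5, encoding a partner of that subunit, rose in males (0.59, adjusted p = 0.0241, and 0.30 in females, adjusted p = 0.288). The protease gene Furin, whose product cleaves pro-TGF-beta, rose in females (0.73, adjusted p = 0.0378, and 0.28 in males, adjusted p = 0.458). The Itgb5 call was lost in 6 of its alternative fits and the Furin call in 10. Of 3 other tested Itgb5 probe sets, 2 were called higher in females (0.74, adjusted p = 0.00676, and 0.50, adjusted p = 0.031) and all 3 in males (0.66 to 0.90).

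Of 11 genes of further lysyl oxidases, their processing and crosslinking, 10 were tested and the same 3 rose in each sex. Postn encodes periostin, which in mice promotes the processing of pro-lysyl oxidase, and it rose by 2.14 on the log2 scale in females (adjusted p = 4.73e-05) and by 2.90 in males (adjusted p = 1.28e-06). Pcolce, encoding an enhancer of procollagen processing by BMP-1, read 3706 to 5343 in female TAC and 1427 to 2155 in female sham, and 3452 to 5271 in male TAC and 1556 to 2067 in male sham. Pcolce rose by 1.28 in females (adjusted p = 1.98e-05) and by 1.29 in males (adjusted p = 1.1e-05), with no overlap of the groups. Fn1, encoding fibronectin, rose by 1.07 in females (adjusted p = 0.000352) and by 1.33 in males (adjusted p = 3.07e-05). Loxl3, another lysyl oxidase, did not pass (0.62 in females, adjusted p = 0.0575, and 0.35 in males, adjusted p = 0.301), and neither did Loxl4 (0.01 in females and −0.04 in males). In females Loxl3 became called higher in 5 of 20 alternative limma fits, 1 of them with 18S (0.83, adjusted p = 0.0328). Beside the Gapdh ratio its female log2 difference was 0.36 (adjusted p = 0.586). Bmp1, whose product removes the propeptide of lysyl oxidase, had log2 differences of 0.82 in females (adjusted p = 0.357) and 1.54 in males (adjusted p = 0.0594). The male value became called in 3 of 19 alternative limma fits and was 0.37 beside the Gapdh ratio (adjusted p = 0.892). The other Bmp1 probe sets were too dim to be tested. Without the brightness filter they gave −0.62 and −0.11 in females and −0.88 and −0.16 in males, and none passed.

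Of 13 elastolytic proteases and their inhibitors, 11 were tested, 6 rose in females, and 6 rose and 1 fell in males. Mmp2, encoding gelatinase A, rose by 1.04 in females (adjusted p = 7.1e-05) and by 1.003 in males (adjusted p = 6.85e-05). Ctss, encoding the elastase cathepsin S, rose by 0.78 in females (adjusted p = 0.00247) and by 0.83 in males (adjusted p = 0.0013). The inhibitor gene Timp1 rose by 1.66 in females (adjusted p = 0.00216) and by 1.78 in males (adjusted p = 0.000981). Timp2 rose by 0.83 in females (adjusted p = 0.00377) and by 1.02 in males (adjusted p = 0.000541) on its brightest probe set, but no other Timp2 probe set was called higher, and one fell in females (−0.98, adjusted p = 0.00517). Ctsk, encoding cathepsin K, rose in males (0.87, adjusted p = 0.00695; 0.45 in females, adjusted p = 0.171), and Mmp14 rose in both sexes (0.88 in females, adjusted p = 0.0249, and 1.07 in males, adjusted p = 0.0064).

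Timp4, a metalloproteinase inhibitor gene strongly expressed in heart, was singled out after its values were seen. It read 376 to 920.5 in female TAC and 172 to 512 in female sham, and 324 to 679.8 in male TAC and 1168 to 1309 in male sham. Timp4 rose by 1.02 on the log2 scale in females (adjusted p = 0.0188) and fell by 1.44 in males (adjusted p = 0.00141). The female response minus the male one was 2.46 (adjusted p = 0.0803), which did not pass. A second Timp4 probe set gave 0.09 in females (adjusted p = 0.899) and −1.03 in males (adjusted p = 0.0309).

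**Figure D5:**
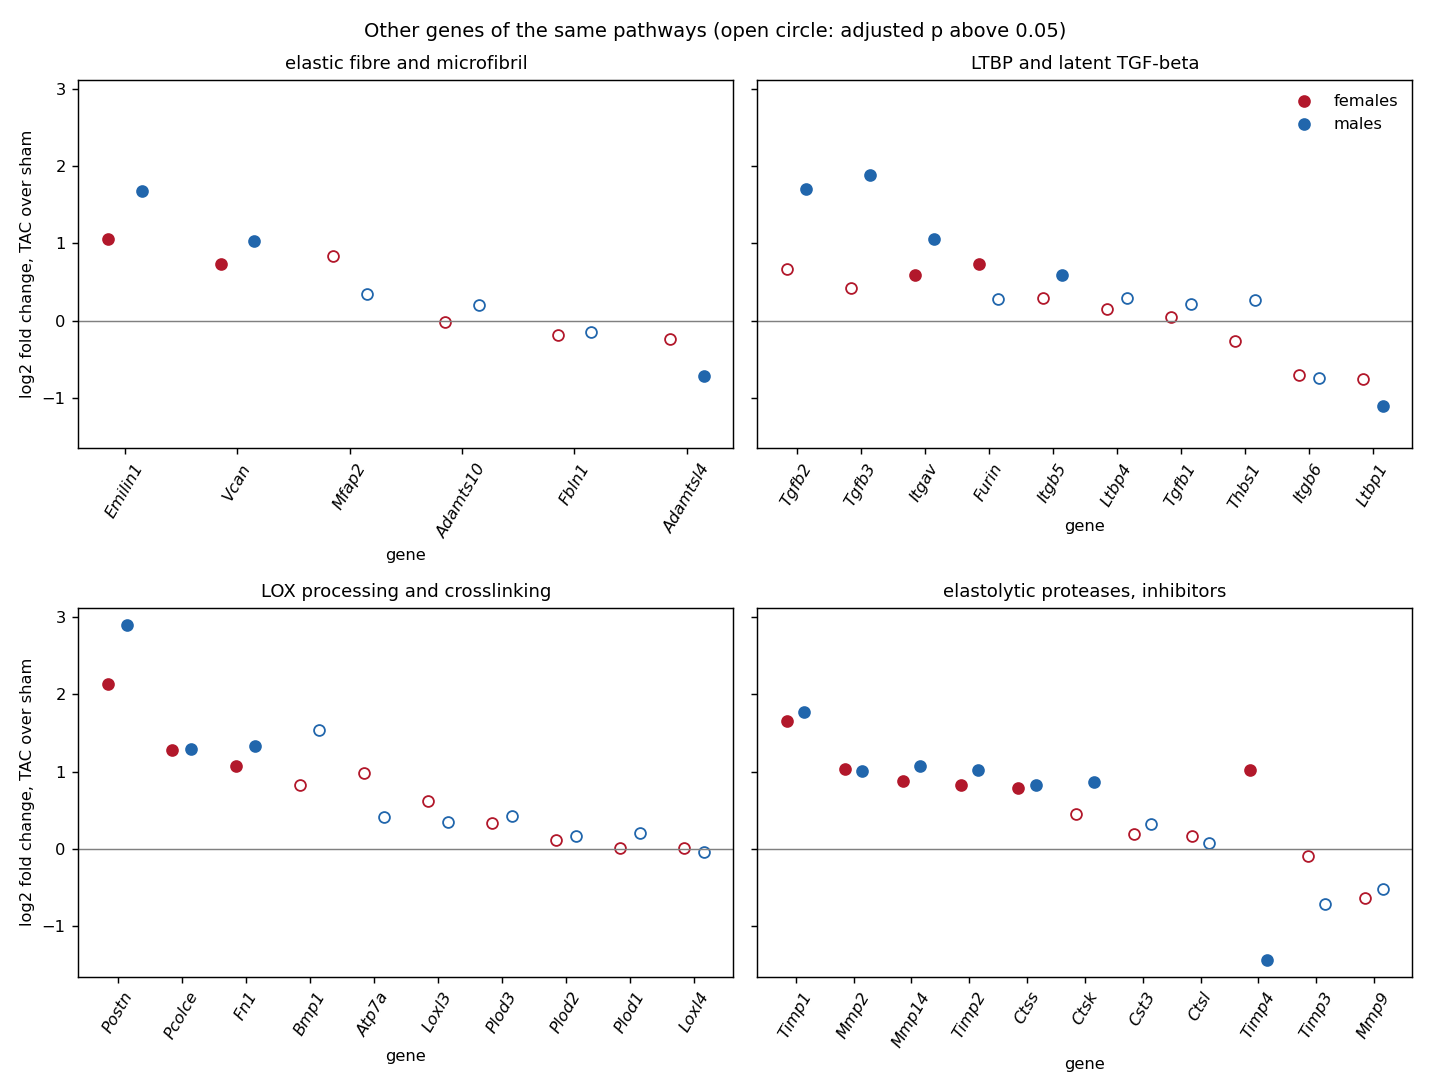
Log2 fold change of TAC over sham in females and males for the tested genes of 4 related lists, ordered within a panel by the mean of both sexes. Filled circles passed at an adjusted p below 0.05. Postn lies highest, Ltbp1 lies below 0 in both sexes, and Timp4 is the gene whose filled circles lie on opposite sides of 0.

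The genes whose array pattern was most like each of the 8 were found by the root mean square difference of gene-centred log2(signal + 16) over the 16 arrays, among 12391 genes with 1 probe set each. Ltbp2 lay nearest to Ccn2 (0.51), Thbs4 (0.52) and Postn (0.53), which encode matrix-associated secreted proteins. Ltbp3 lay nearest to Col1a1 (0.27), Tspo (0.27) and Bgn (0.30). Loxl1 lay nearest to the natriuretic peptide gene Nppb (0.27) and the collagen genes Col5a2 (0.33) and Col1a2 (0.34). None of these neighbours is itself one of the 8. Lox lay nearest to Col1a1 (0.46), Enah (0.46) and Clu (0.48), farther from its neighbours than Loxl1 was. Eln lay nearest to Adam19 (0.30), to Mfap5 of the same list (0.31) and to the fibroblast marker Pi16 (0.32). Mfap5 lay nearest to Meox1 (0.26), Fstl1 (0.28) and Bgn (0.29). The fibulins, whose own changes were small, had closer but different neighbours. Fbln5 lay nearest to Map4 (0.22), Ubxn1 (0.23) and Cldn5 (0.24), and Fbln2 to S100a16 (0.18), Plp2 (0.18) and Cd151 (0.19).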

How the data were processed

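For 22690 probe sets on 16 arrays the authors deposited a signal intensity, computed with GCOS per the submitters' processing notes; its version and settings are not given in the sources used here. The intensities are linear and already scaled, since after trimming 2% from each end the mean was 500.21 to 500.25 on every array. Of the probe sets other than 64 controls, 20380 carried 1 gene symbol, 691 several and 1555 none, and only the first kind was named. Probe sets are of the mouse 430A array, although the design text says RAE 430A.

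A pseudocount of 16 was added, log2 was taken, and the 40% of probe sets with the lowest mean over the 16 arrays were left out, which kept 13576. limma 3.58.1 in R 4.3.3 fitted 4 group means with an intensity trend, 2-sided, and was tested on simulated data. A gene was counted by its brightest probe set. From each further list the 4 genes with the smallest p averaged over the sexes, and those called in 1 sex, were named; Fbln1, Ltbp4, Tgfb1, Loxl4, Bmp1, Mmp14, Mfap4 and Timp4 were named after their values were seen. The members and lists were chosen with earlier results of these data known. Alternatives were scaling, pseudocount, filter, trend, array weights, 18S or Gapdh covariates, the groups fitted, the replicate block and each array left out. Animals were not treated as paired by replicate number. Correlations of same-numbered deviations lay between −0.03 and 0.12, which cannot exclude a pairing. Precision is limited by having 4 arrays a group.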

Additional observations from a re-analysis of the deposited data

Results flagged for a closer look

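Of 128 sets of 4 arrays examined for the genes named above, 5 held an array whose gap to the nearest other array was an unusually large share of the group's range on the log2 scale (above Dixon's critical value for 4 values), and chance alone flags about 5% of such sets. Mfap5 on its brighter probe set read 1466 in female sham replicate 2 against 851 to 874 in the other female sham arrays, a gap of 0.951 of the range, and the second Mfap5 probe set did not show it. Mfap2 read 162 in female TAC replicate 3 against 379 to 397 in the other female TAC arrays (0.945), although that array was the highest for all 8 measured genes of the report. Mmp14 (310.3 against 669.8 to 731, 0.897) and Timp2 (1727 against 2375 to 2513, 0.85) were low in female TAC replicate 1, which was also the lowest array of its group for 6 of the 8 genes. Itgav read 1447 in male TAC replicate 1 against 1721.5 to 1773 in the other male TAC arrays (0.854). No cause was tested for any of these.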

How the results depend on the processing

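No log2 difference of TAC over sham changed sign for any of the 8 genes under any alternative. The number of genes called higher changed by more than 1.5 times only with the RNA covariates: 5 of 8 in males with 18S, and with the Gapdh ratio 1 in females, 2 in males and 2 averaged over the sexes. With single arrays left out, the calls numbered 6 to 8 in females, 7 to 8 in males, and 8 to 8 averaged over the sexes, and 0 to 0 in the comparisons between the sexes. With the replicate number as a block they numbered 7 in females, 8 in males, 8 averaged over the sexes and 0 between the sexes, so the block changed no call count. Whether the numbers pair the animals is not known. Fbln2 became called in females with median centring, array weights, the dimmest 60% left out, or without female TAC replicate 2 or female sham replicate 1. Over all tested probe sets, median centring gave 1324 higher and 733 lower calls in females, where the main scaling gave 877 and 1168, and 1246 and 1031 in males, where the main scaling gave 1095 and 1327; this centring moved the median log2 difference of all probe sets by 0.12 in females and 0.06 in males.
Ltbp2 in sham, and the dimmer probe sets of Eln and Lox, lie near or below the brightness limit, so their fold changes are the least certain. Only the probe sets with 1 symbol were read.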
